A study of Mus musculus with 3 samples.

Results

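The serum amyloid A genes Saa1 to Saa4, the orosomucoid genes Orm1 to Orm3, the lipocalin gene Lcn2, the haptoglobin gene Hp and the hemopexin gene Hpx were followed in hepatocyte RNA of mice on 3 arrays. These 10 genes were taken by name from the 31870 gene symbols on the array. Hepatocytes had been isolated with collagenase, after an overnight fast, from male wild-type C57BL/6 mice aged 22 weeks. The anti-VLA-4 mice had eaten high-fat diet (HFD) for 16 weeks from the age of 6 weeks and, after its first 10 weeks, were injected 2 times a week for 6 weeks with an antibody that blocks VLA-4, an integrin by which leukocytes adhere to vessel walls. The HFD-IgG mice had the same diet and injection schedule with control IgG, and the standard-diet mice ate standard diet for 16 weeks, with no injection listed. There was 1 array per group, and the number of mice behind an array is not given in the sources used here, which leaves every difference below without a replicate check or a p-value. The HFD-IgG and standard-diet groups differed in diet and in the listed injections, which cannot be told apart, and the anti-VLA-4 array came from a separate slide, which leaves slide and antibody confounded: they cannot be told apart.

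Serum amyloid A proteins are small apolipoproteins that travel on high-density lipoprotein. In the mouse Saa1 and Saa2 are the main forms that the liver makes in the acute phase, the change in secreted liver proteins that follows infection or injury, whereas Saa3 is also made by macrophages and fat cells and Saa4 is the form made without a stimulus. Orosomucoids, also called acid glycoproteins, carry small molecules in plasma, lipocalin 2 binds the siderophores with which bacteria take up iron, haptoglobin binds free haemoglobin and hemopexin binds free haem. Interleukin-6 and interleukin-1 raise transcription of many of these genes through the factors STAT3, NF-kB and C/EBP.

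Every gene of the set had 1 probe of 60 bases, printed on 1 spot, and every probe was well above background on all 3 arrays, with no spot flagged or saturated. Saa1 and Saa2 are near-identical genes, so telling them apart rests on the probe, and whether it does so was not tested. The Saa1 probe lies at chr7:53996070-53996129 of build mm9 on the minus strand and the Saa2 probe at chr7:54009622-54009681 on the plus strand. The Saa3 probe lies at chr7:53970389-53970448 and the Lcn2 probe at chr2:32240199-32240258, both on the minus strand. On chromosome 4, plus strand, the Orm1 probe maps to chr4:63006483-63007090, the Orm3 probe to chr4:63018910-63020393 and the Orm2 probe to chr4:63024979-63025038. The 60 bases of the Orm1 and Orm3 probes stretch over 608 and 1484 genomic bases, which means that each spans an intron. The probes are shown because the whole report rests on 1 of them per gene, with Saa2 and Lcn2 cut to their first 30 bases.
Saa1 probe: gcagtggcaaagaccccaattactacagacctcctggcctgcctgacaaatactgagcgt
Saa2 probe, first bases: ttactcgagcagtagtaactgcttgaggag
Saa3 probe: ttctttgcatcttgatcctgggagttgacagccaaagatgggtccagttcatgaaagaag
Orm1 probe: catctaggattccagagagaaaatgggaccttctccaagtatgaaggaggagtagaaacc
Orm2 probe: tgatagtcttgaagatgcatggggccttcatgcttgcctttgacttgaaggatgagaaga
Orm3 probe: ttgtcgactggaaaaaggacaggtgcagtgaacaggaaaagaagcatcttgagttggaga
Lcn2 probe, first bases: aaggagcatctggagcctcttcttatttgg
No other probe on the array listed an accession of these genes. RefSeq lists Saa2 as an older name of Saa1 and Saa1 as an older name of Saa2, so a value under either name can mean the other gene in other sources. Whether a probe also binds the RNA of a near-identical copy was not tested, since transcripts were not used here.

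RefSeq promoters, 250 bases before to 50 after the gene start on build GRCm38.p6, were given for 8 of the 10 genes, all but Orm1 and Hp. The Saa1 and Saa2 promoters were 94.8% identical over 251 aligned columns and those of Orm2 and Orm3 85.9% identical over 255, while the other Saa pairs ranged from 46.8% to 52.4%. The stretches below are from the Saa1, Saa2, Orm2 and Orm3 promoters, with a match to the C/EBP letters TTGCNNAA in capitals. That match starts 182 bases before the gene start in Saa1, 183 before it in Saa2, 120 before it in Orm2 and 121 before it in Orm3. The Saa1 stretch is chr7:46743041-46743190 on the minus strand, and the Saa2 stretch is chr7:46751623-46751772, the Orm2 stretch chr4:63362279-63362368 and the Orm3 stretch chr4:63355988-63356077, all on the plus strand.
Saa1 promoter: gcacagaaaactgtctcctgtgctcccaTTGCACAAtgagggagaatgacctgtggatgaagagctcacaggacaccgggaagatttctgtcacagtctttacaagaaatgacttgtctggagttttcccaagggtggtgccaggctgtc
Saa2 promoter: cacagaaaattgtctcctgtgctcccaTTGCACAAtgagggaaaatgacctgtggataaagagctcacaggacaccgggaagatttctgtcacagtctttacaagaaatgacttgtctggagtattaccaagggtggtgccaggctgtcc
Orm2 promoter: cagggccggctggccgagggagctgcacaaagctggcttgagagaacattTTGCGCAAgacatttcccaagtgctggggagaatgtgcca
Orm3 promoter: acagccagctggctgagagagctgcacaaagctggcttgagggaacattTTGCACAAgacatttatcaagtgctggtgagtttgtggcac
On either strand of the 250 bases before the start, TTGCNNAA was found in 8 of the 8 promoters, against 9.56% of all 32851 promoters in the table. The STAT3 letters TTCNNNGAA were found in 0 of the 8, against 7.02%, and the NF-kB consensus in 0 of the 8, against 7.25%, so no match overlapped another motif. The motifs were chosen with these sequences in view, and a match describes letters, not a bound site.

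Levels below are the processed signal of the probe divided by the 75th percentile of all non-control spots on its array, so they compare a probe between arrays and not probes with each other. The error after ± is the scanner software's own error of the spot, about 10% of the signal for every gene here, which covers neither animals nor preparations. On the log2 scale it gives each difference between 2 arrays an error of about 0.20.

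Saa1 and Saa2, the inducible liver forms, had the widest range of the set. The Saa1 level was 88.1 ± 8.81 in anti-VLA-4, 139 ± 13.9 in HFD-IgG and 7.17 ± 0.717 in standard-diet hepatocytes. The Saa2 level was 101 ± 10.1 in anti-VLA-4, 142 ± 14.2 in HFD-IgG and 6.71 ± 0.671 in standard-diet hepatocytes. Both genes were therefore high on the high-fat diet arrays and low on the standard-diet array, with log2 differences of HFD-IgG over standard diet of 4.28 (19.4-fold) for Saa1 and 4.40 (21.1-fold) for Saa2. Between the antibodies the differences were small beside that. Anti-VLA-4 over HFD-IgG was -0.66 (1.58-fold lower) for Saa1 and -0.48 (1.40-fold lower) for Saa2, which is 3.24 and 2.37 times the scanner error of the difference.

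Saa3, the form that macrophages and fat cells also make, had levels of 3.09 ± 0.309 in anti-VLA-4, 3.87 ± 0.387 in HFD-IgG and 0.944 ± 0.0947 in standard-diet hepatocytes. It stood in the same order as Saa1 and Saa2 with a smaller span, at a log2 difference of 2.04 (4.10-fold higher) for HFD-IgG over standard diet and of -0.33 (1.25-fold lower) for anti-VLA-4 over HFD-IgG. Its antibody difference was 1.60 times its scanner error. Saa4, the form made without a stimulus, had another order. Its level was 42.8 ± 4.28 in anti-VLA-4, 24.2 ± 2.42 in HFD-IgG and 9.13 ± 0.913 in standard-diet hepatocytes, so that anti-VLA-4 lay above HFD-IgG by 0.82 (1.77-fold) and HFD-IgG above standard diet by 1.41 (2.65-fold). The Saa4 difference between the antibodies was 4.04 times its scanner error, the highest multiple of the 10 genes. With another background correction (normexp, below) the Saa4 difference of HFD-IgG over standard diet was 0.60, which is under 2-fold.

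**Figure D1:**
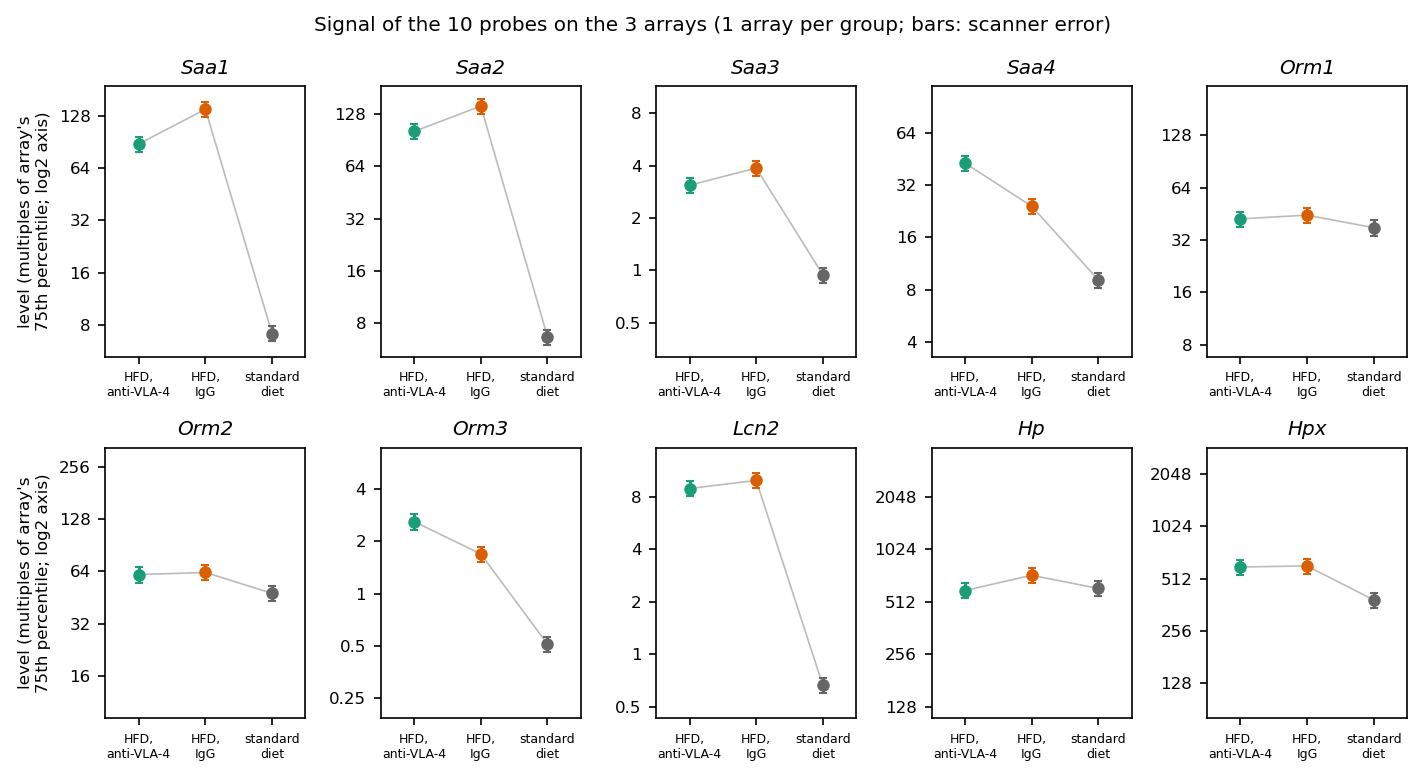
Level of each of the 10 probes (multiples of the array's 75th percentile, log2 axis of the same span in every panel) on the anti-VLA-4, HFD-IgG and standard-diet arrays, left to right, with bars for the scanner error of the spot. Saa1, Saa2 and Lcn2 drop steeply at the standard-diet array, Saa4 and Orm3 are highest on the anti-VLA-4 array, and Orm1, Orm2, Hp and Hpx stay within 2-fold across the arrays.

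The orosomucoids did not move alike. Orm1 had a level of 42.3 ± 4.23 in anti-VLA-4, 44.4 ± 4.44 in HFD-IgG and 37.6 ± 3.76 in standard-diet hepatocytes, and Orm2 had 61.3 ± 6.13 in anti-VLA-4, 63.1 ± 6.31 in HFD-IgG and 47.8 ± 4.78 in standard-diet hepatocytes. Orm1 differed by 0.24 and Orm2 by 0.40 on the log2 scale for HFD-IgG over standard diet, and by -0.07 and -0.04 for anti-VLA-4 over HFD-IgG, all of them within 2 times the scanner error. Orm3, whose promoter was 85.9% identical to that of Orm2, had 2.59 ± 0.259 in anti-VLA-4, 1.69 ± 0.169 in HFD-IgG and 0.512 ± 0.0515 in standard-diet hepatocytes. It was low on the standard-diet array alone, with a log2 difference of 1.72 (3.30-fold higher) for HFD-IgG over standard diet and of 0.62 (1.53-fold higher) for anti-VLA-4 over HFD-IgG. Orm3 and Saa4 lay above HFD-IgG on the anti-VLA-4 array, while the other 8 genes lay below it by 0.02 to 0.66. Normexp put Orm1, Orm2, Lcn2, Hp and Hpx of these 8 above 0, by 0.03 to 0.19, and over all settings Orm2 lay above 0 in 3 of 8 and Hpx in 3 of 9.

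Lcn2, the siderophore-binding lipocalin, had a level of 8.95 ± 0.895 in anti-VLA-4, 9.97 ± 0.997 in HFD-IgG and 0.661 ± 0.0666 in standard-diet hepatocytes. The standard-diet array thus stood apart, with HFD-IgG above it by 3.91 (15.1-fold), while anti-VLA-4 and HFD-IgG differed by -0.16, less than the scanner error. The haem and haemoglobin binders stayed within 2-fold across the arrays. Hp had a level of 594 ± 59.4 in anti-VLA-4, 727 ± 72.7 in HFD-IgG and 611 ± 61.1 in standard-diet hepatocytes, with a log2 difference of 0.25 for HFD-IgG over standard diet and of -0.29 for anti-VLA-4 over HFD-IgG. Hpx had 596 ± 59.6 in anti-VLA-4, 605 ± 60.5 in HFD-IgG and 386 ± 38.6 in standard-diet hepatocytes, with a difference of 0.65 (1.57-fold higher) for HFD-IgG over standard diet, 3.18 times its scanner error, and of -0.02 for anti-VLA-4 over HFD-IgG. Under normexp the HFD-IgG over standard diet differences of Orm1, Orm2, Hp and Hpx turned negative, at -0.50, -0.26, -0.40 and -0.05.

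The first comparison asks which of these genes differed with the diet and its injections. For HFD-IgG over standard diet, 6 of the 10 genes (Saa1, Saa2, Saa3, Saa4, Orm3 and Lcn2) were at least 2-fold higher and 0 were at least 2-fold lower, with a median log2 difference of 1.56. Over all 22002 genes well above background on either array, 20.4% were at least 2-fold higher and 2.41% at least 2-fold lower, with a median of 0.04. Of the 8647 genes brighter than the 75th percentile of at least 1 array, called bright here, 4.27% were higher and 1.93% lower, with a median of -0.10. All 10 genes are in that set, but Saa3, Orm3 and Lcn2 lay below the percentile on the standard-diet array, at 0.944, 0.512 and 0.661. They entered the set only through the HFD-IgG array, on which they were high, so their place in it partly follows from the filter. In that bright set 36 genes had a higher difference than Saa2, 37 than Saa1, 47 than Lcn2 and 195 than Saa3. The 2-fold calls over all genes lean on the scaling: 89.4% of them were higher here and 47.3% with quantile scaling, whereas the 6 genes of the set were called under both.

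The second comparison asks which of them differed between the antibodies on high-fat diet. For anti-VLA-4 over HFD-IgG, 0 of the 10 genes passed 2-fold upward and 0 downward, 2 lay above 0 and 8 below, and the median was -0.11. Over all 22589 genes, 1.90% passed 2-fold upward and 16.5% downward with a median of -0.06, and among 8562 bright genes the shares were 0.806% and 1.30%. By scaling, 10.3% of those calls over all genes were higher here and 54.6% with quantile scaling. Among the bright genes 122 had a higher difference than Saa4, and 226 had a lower one than Saa1. Without replicates, differences of this size cannot be set against the spread between mice.

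The arrays at the ends of the design, anti-VLA-4 over standard diet, share an array with each comparison above and add no independent support to them. The same 6 genes passed 2-fold upward and 0 downward, with a median of 1.97. Over all 20334 genes 7.98% were higher and 3.39% lower with a median of 0.00, and over 8575 bright genes 3.34% and 1.55%. Saa3, Orm3 and Lcn2 entered that bright set only through the anti-VLA-4 array, on which they were high. Among the calls over all genes 70.2% were higher here and 57.2% with quantile scaling. Saa2 stood at 3.92 (15.1-fold higher), Lcn2 at 3.76 (13.5-fold), Saa1 at 3.62 (12.3-fold), Orm3 at 2.34 (5.06-fold), Saa4 at 2.23 (4.69-fold) and Saa3 at 1.71 (3.27-fold).

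**Figure D2:**
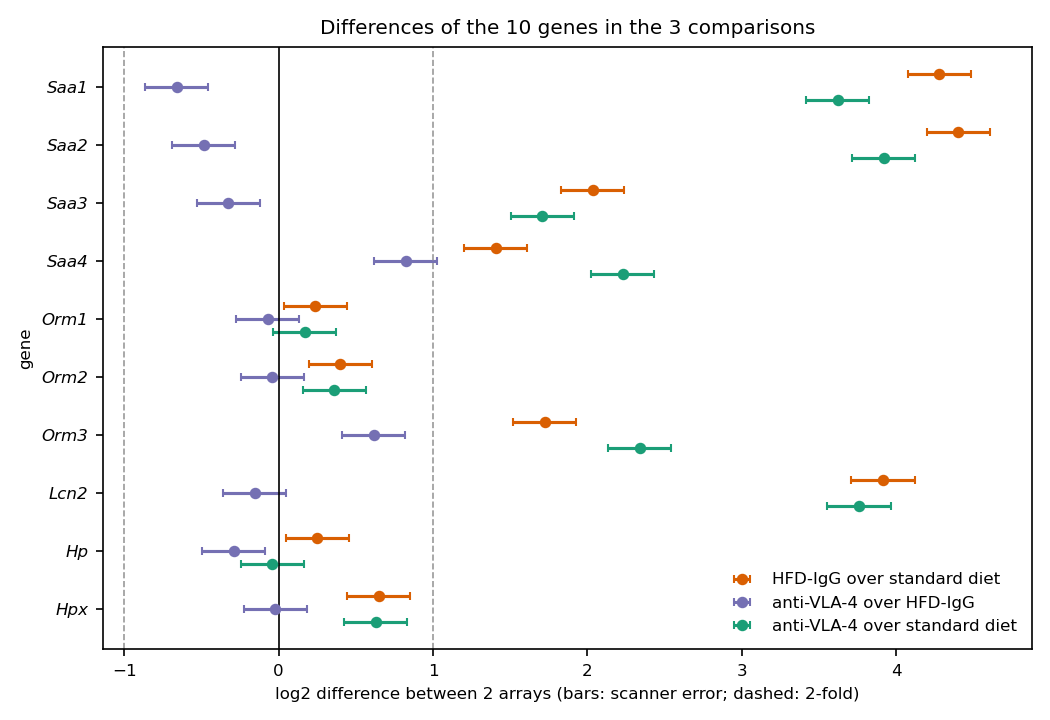
Log2 difference of each gene in the 3 comparisons (x axis), with bars for the scanner error and dashed lines at 2-fold. Saa1, Saa2, Saa3, Saa4, Orm3 and Lcn2 lie past the right dashed line against standard diet, and all 10 genes lie within 2-fold between the antibodies.

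**Figure D3:**
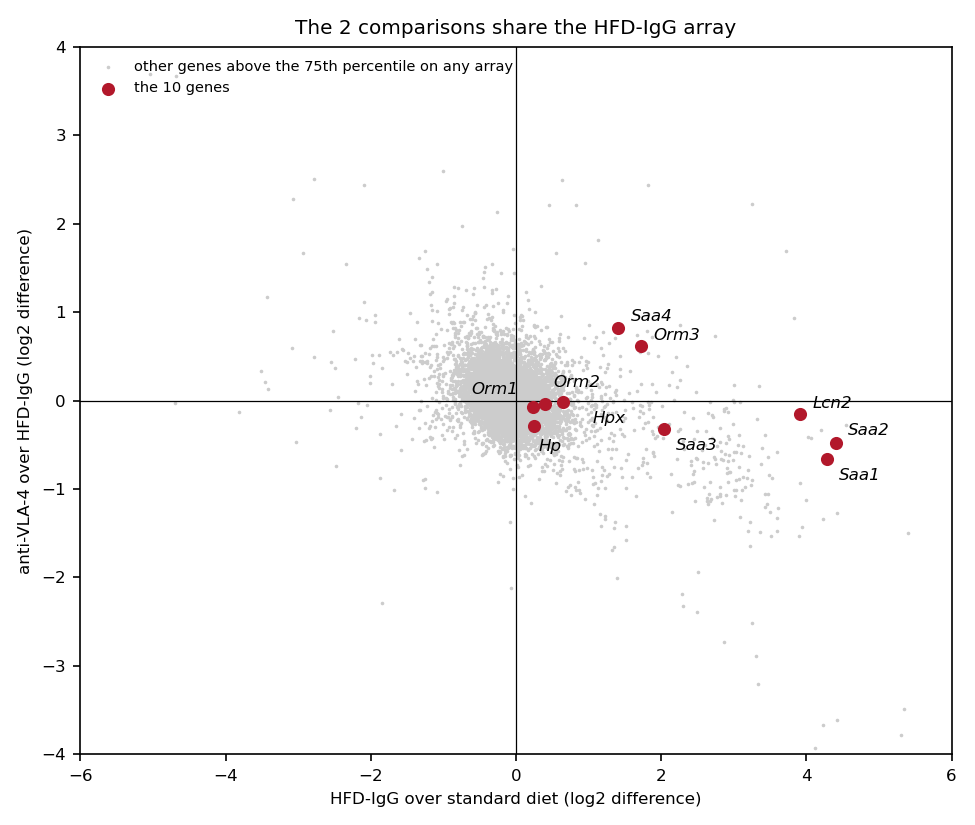
Log2 difference of HFD-IgG over standard diet (x axis) against that of anti-VLA-4 over HFD-IgG (y axis) for the 10 genes (red) and for other genes above the 75th percentile on any array (grey, with the axes limited to 6 and 4 in each direction). The axes share the HFD-IgG array, so the downward tilt of the cloud is not read. Saa1, Saa2 and Lcn2 lie at the far right near 0 on the y axis.

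Over all genes, the calls went with the base composition of the probe. For HFD-IgG over standard diet, genes whose probe held over 60% purines (A and G) were at least 2-fold higher in 46.9% of cases, against 8.24% of genes whose probe held at most 40%. Among bright genes the shares were 7.59% and 4.96%. The 10 probes held from 36.7% (Hpx) to 70.0% (Orm3) purines. Among the probes of over 60% purines, Saa2, at 66.7%, and Orm3 were at least 2-fold higher and Orm1, at 63.3%, was not. Among those of over 40% and at most 60%, Saa1, at 50%, Saa3 and Saa4 were higher and Orm2 and Hp were not. Among those of at most 40%, Lcn2, at 38.3%, was higher and Hpx was not. For anti-VLA-4 over HFD-IgG, 46.7% of genes with over 60% purines were at least 2-fold lower, against 3.78% at no more than 40%, and 0 of the 10 genes were. The part of base composition in the differences of the 10 genes was not tested.

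**Figure D4:**
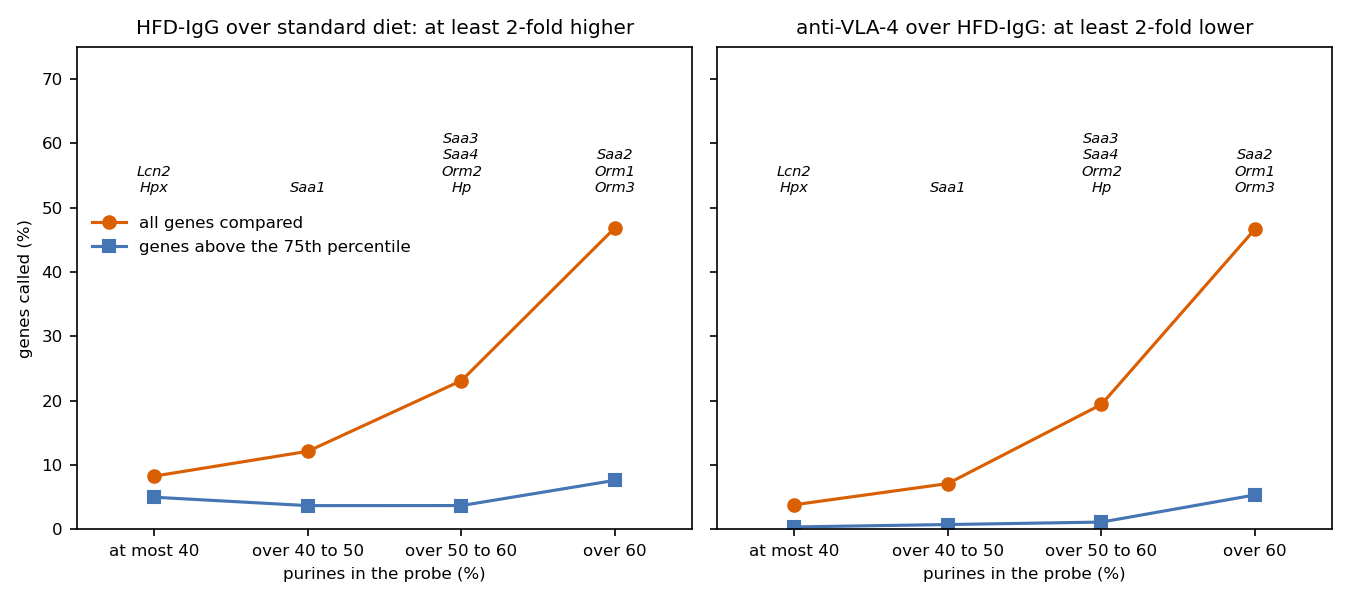
Percent of genes called, by the percent of purines in the probe, for HFD-IgG over standard diet (left, at least 2-fold higher) and anti-VLA-4 over HFD-IgG (right, at least 2-fold lower), over all genes compared (circles) and over genes above the 75th percentile (squares). The curve of all genes climbs to 46.9% and 46.7% in the last class. The names show the class of each of the 10 probes and are not placed by a value.

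The Saa genes form a cluster on chromosome 7 in the RefSeq order Saal1, Saa3, Saa4, Saa1, Saa2, Hps5, Gtf2h1, and the Orm genes form one on chromosome 4 in the order Col27a1, Orm1, Orm3, Orm2, Akna. The genes beside the Saa cluster did not share its difference. Saal1 had levels of 0.249 in anti-VLA-4, 0.250 in HFD-IgG and 0.245 in standard-diet hepatocytes. Hps5, a subunit of a lysosome biogenesis complex, differed by -0.04 and Gtf2h1, a subunit of transcription factor TFIIH, by -0.28 for HFD-IgG over standard diet. Beside the Orm cluster, Col27a1, a collagen gene, differed by 0.70 and Akna, an AT-hook protein gene, by 0.46, both under 2-fold here and at 1.46 and 1.48 under normexp. The next genes outward were Kif12, a kinesin gene, at 0.73, and Whrn, the whirlin gene, which was 3.58-fold lower, at 0.97 under normexp. Inside the clusters the neighbours also differed, since Orm3 was 3.30-fold higher between Orm1 at 1.18-fold and Orm2 at 1.32-fold.

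Among the cytokines, receptors and factors that induce the acute phase, Socs3 and Il1r1 were at least 2-fold higher in anti-VLA-4 than in HFD-IgG. Socs3, the feedback inhibitor that STAT3 induces, had a level of 2.93 in anti-VLA-4, 0.744 in HFD-IgG and 1.24 in standard-diet hepatocytes. It was thus 3.94-fold higher for anti-VLA-4 over HFD-IgG and 1.67-fold lower for HFD-IgG over standard diet. Stat3 itself had 18.2 in anti-VLA-4, 9.12 in HFD-IgG and 10.4 in standard-diet hepatocytes, a log2 difference of 0.997, just under 2-fold, for anti-VLA-4 over HFD-IgG. Il1r1, the interleukin-1 receptor, had 3.08 in anti-VLA-4, 0.957 in HFD-IgG and 2.27 in standard-diet hepatocytes, and was 3.22-fold higher in anti-VLA-4 than in HFD-IgG. Cebpb differed by 0.40 and Cebpd by -0.01 for anti-VLA-4 over HFD-IgG, and by 0.18 and -0.72 for HFD-IgG over standard diet. For HFD-IgG over standard diet Il1b was higher by a lower bound of 4.34-fold, as the standard-diet array was not well above background. With quantile scaling that bound was 1.11 on the log2 scale. For anti-VLA-4 over HFD-IgG Il1b was 2.35-fold higher, a difference that was -0.03 under normexp. Il6 and Tnf were well above background on the anti-VLA-4 array alone. At 2-fold, 7 of 26 list genes measured were higher and 1 lower for HFD-IgG over standard diet, against 20.4% and 2.41% of all genes. For anti-VLA-4 over HFD-IgG, 3 of 27 were higher and 3 lower, against 1.90% and 16.5% of all genes. The medians of the list were 0.13 and 0.03. Over list genes well above background on both arrays the counts were 3 of 20 higher and 1 lower, and 3 of 22 higher and 1 lower. Of all genes so measured, 8.87% were higher and 2.12% lower for HFD-IgG over standard diet. For anti-VLA-4 over HFD-IgG the shares were 1.52% and 6.76%. Nfkbiz, which helps NF-kB at acute-phase promoters, was 3.15-fold higher and Il22, a cytokine that acts on hepatocytes, 2.90-fold higher for HFD-IgG over standard diet, and Il22 was 2.44-fold lower for anti-VLA-4 over HFD-IgG. Both Il22 calls ended under another scaling, at 0.66 with quantile scaling for HFD-IgG over standard diet and at -0.48 with normexp for anti-VLA-4 over HFD-IgG. Between the antibodies quantile scaling called 5 of the list higher and 1 lower, and normexp 3 and 0.

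The other acute-phase genes did not follow Saa1, Saa2 and Lcn2 as a group. For HFD-IgG over standard diet, 3 of 28 further positive acute-phase genes passed 2-fold upward and 1 downward, against 20.4% and 2.41% of all genes. All 28 were well above background on both arrays, and of all genes so measured 8.87% were higher and 2.12% lower. The median of these 28 was 0.16. Hamp2, a hepcidin gene, was the one nearest to Saa1 in size, with levels of 29.3 in anti-VLA-4, 9.05 in HFD-IgG and 0.685 in standard-diet hepatocytes. Unlike Saa1 it was 3.24-fold higher in anti-VLA-4 than in HFD-IgG. Cd14, a receptor for bacterial lipopolysaccharide that macrophages carry too, was 2.34-fold higher and Il1r1 2.37-fold lower for HFD-IgG over standard diet. For anti-VLA-4 over HFD-IgG, the median was 0.36, and 5 of the 28 were higher and 1 was lower, against 1.90% and 16.5% of all genes. Among all genes well above background on both of those arrays, 1.52% were higher and 6.76% lower. Mt2, a metallothionein gene, led them at 84.0 in anti-VLA-4, 25.6 in HFD-IgG and 26.5 in standard-diet hepatocytes. The median of the list for HFD-IgG over standard diet was -0.57 under normexp, and with quantile scaling 1 gene of the list was called higher, without Cd14 at 0.75. Normexp called 4 of the list lower in that comparison.

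Among 12 negative acute-phase genes, those that fall in the acute phase, 1 was at least 2-fold higher and 0 were lower for HFD-IgG over standard diet, with a median of 0.07, and 0 and 0 for anti-VLA-4 over HFD-IgG, with a median of -0.08. Of all genes well above background on both arrays, 8.87% were higher and 2.12% lower for HFD-IgG over standard diet. For anti-VLA-4 over HFD-IgG the shares were 1.52% and 6.76%. The gene of the list called was Serpina6, the corticosteroid-binding globulin, at 63.0 in anti-VLA-4, 31.9 in HFD-IgG and 9.05 in standard-diet hepatocytes. Its order across the arrays was that of Saa4 and Orm3. Alb, the albumin gene, had 617 in anti-VLA-4, 762 in HFD-IgG and 747 in standard-diet hepatocytes, a log2 difference of 0.03 for HFD-IgG over standard diet (-0.58 under normexp), so Saa1 and Saa2 were low on the standard-diet array without a matching difference in Alb.

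Of the genes for receptors and carriers of these proteins, 7 of 11 measured were at least 2-fold higher and 0 lower for HFD-IgG over standard diet, with a median of 1.27, and 0 and 0 for anti-VLA-4 over HFD-IgG, with a median of 0.27. Of those well above background on both arrays, 5 of 9 were higher for HFD-IgG over standard diet. In that comparison 20.4% of all genes were at least 2-fold higher, and 8.87% of all genes well above background on both arrays. Tlr2, a receptor for serum amyloid A, was 6.94-fold higher at 0.294 in anti-VLA-4, 0.244 in HFD-IgG and 0.0352 in standard-diet hepatocytes. Fpr1, a formyl peptide receptor, was 4.11-fold higher, Cd36, a scavenger receptor, 2.59-fold higher, and Hmox1, the enzyme that degrades haem, 2.40-fold higher. Normexp put Cd36 at 0.69 and Hmox1 at 0.79, under 2-fold. Cd163, the haptoglobin-haemoglobin receptor of macrophages, was not well above background on any array, nor were Lrp2, Ager, Mc4r and Mmp9.

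The preparations were labelled hepatocytes, and all 17 hepatocyte markers on the array were well above background on each array, with a summed level of 6161 in anti-VLA-4, 6440 in HFD-IgG and 6697 in standard-diet hepatocytes. For HFD-IgG over standard diet, 0 of the 17 were at least 2-fold higher and 1 was lower (Cps1, a urea cycle enzyme gene, 2.20-fold), with a median of 0.02, and normexp gave 7 lower and a median of -0.68. Many markers of other liver cells were higher for HFD-IgG over standard diet. All 18 of the 18 Kupffer cell and macrophage markers measured passed 2-fold upward for HFD-IgG over standard diet, with summed levels of 62.2 in anti-VLA-4, 82.2 in HFD-IgG and 12.6 in standard-diet hepatocytes. Examples were Cd5l at 9.27-fold and Adgre1 at 8.56-fold. In the same comparison 13 of 15 sinusoidal endothelial markers were higher (Gpr182 at 14.9-fold) and 12 of 15 stellate cell and fibroblast markers (Colec11 at 15.1-fold), with 0 lower in each list. Some of these markers entered only through the HFD-IgG array, on which they were high. Among markers well above background on both arrays, 16 of 16 Kupffer, 11 of 13 endothelial and 5 of 7 stellate markers were at least 2-fold higher. Of all genes well above background on both arrays, 8.87% were. The endothelial list summed to 42.5 in anti-VLA-4, 74.4 in HFD-IgG and 18 in standard-diet hepatocytes, and the stellate list to 17.9 in anti-VLA-4, 34.6 in HFD-IgG and 4.63 in standard-diet hepatocytes. In bulk RNA, fewer cells of a type and less RNA per cell cannot be told apart, and the part of these cells in the differences of the 10 genes was not tested.

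Fat cells and white blood cells can also make Saa3 and Lcn2. Of 8 adipocyte markers, 5 passed 2-fold upward and 1 downward for HFD-IgG over standard diet, with summed levels of 207 in anti-VLA-4, 216 in HFD-IgG and 43.0 in standard-diet hepatocytes. Car3, a carbonic anhydrase gene, had 198 in anti-VLA-4, 200 in HFD-IgG and 24.9 in standard-diet hepatocytes. Car3 made up most of each sum, so the summed levels mainly follow that gene and not the list as a whole. Cfd was 23.4-fold and Fabp4, a fatty acid binding protein gene, 12.1-fold higher for HFD-IgG over standard diet, and among the markers measured on both arrays 4 of 6 were higher and 1 lower. Of all genes well above background on both arrays, 8.87% were higher and 2.12% lower. Lep and Plin1 were not well above background on any array. Of the neutrophil and monocyte markers 4 of 12 were higher and 0 lower in the same comparison, against 20.4% and 2.41% of all genes. Among these markers measured on both arrays, 1 of 7 was higher and 0 were lower, against 8.87% and 2.12% of all genes so measured. The list had summed levels of 63.0 in anti-VLA-4, 72.7 in HFD-IgG and 68.1 in standard-diet hepatocytes. S100a8 had 0.419 in anti-VLA-4, 0.102 in HFD-IgG and 0.0369 in standard-diet hepatocytes, and S100a9 had 1.77 in anti-VLA-4, 0.383 in HFD-IgG and 0.217 in standard-diet hepatocytes. Both were highest on the anti-VLA-4 array, S100a8 4.09-fold and S100a9 4.62-fold above HFD-IgG. Ccr2, a chemokine receptor gene of monocytes, went the other way at 2.87-fold lower in anti-VLA-4 than in HFD-IgG, as did Cxcr2 and Ngp, which were not well above background in anti-VLA-4 and are named here after their values were seen. For HFD-IgG over standard diet normexp called 7 of the list higher. Under normexp the log2 difference between the antibodies was 0.29 for S100a8 and -0.52 for Ccr2, both under 2-fold. Between the antibodies the Kupffer list had 0 genes of 18 past 2-fold (median -0.43), the endothelial list 5 of 15 lower (median -0.93), the stellate list 7 of 15 lower (median -0.99), the adipocyte list 2 of 7 lower (median -0.65), and the neutrophil list 2 of 13 higher and 3 lower (median 0.09). Over all genes 1.90% were at least 2-fold higher and 16.5% at least 2-fold lower between the antibodies. Normexp left 1 lower call in the endothelial list, 1 in the stellate list and 0 in the adipocyte list. In the neutrophil list it left 1 higher and 0 lower, against 5 higher and 3 lower with quantile scaling. The part of these cells in the Saa3 and Lcn2 differences was not tested.

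**Figure D5:**
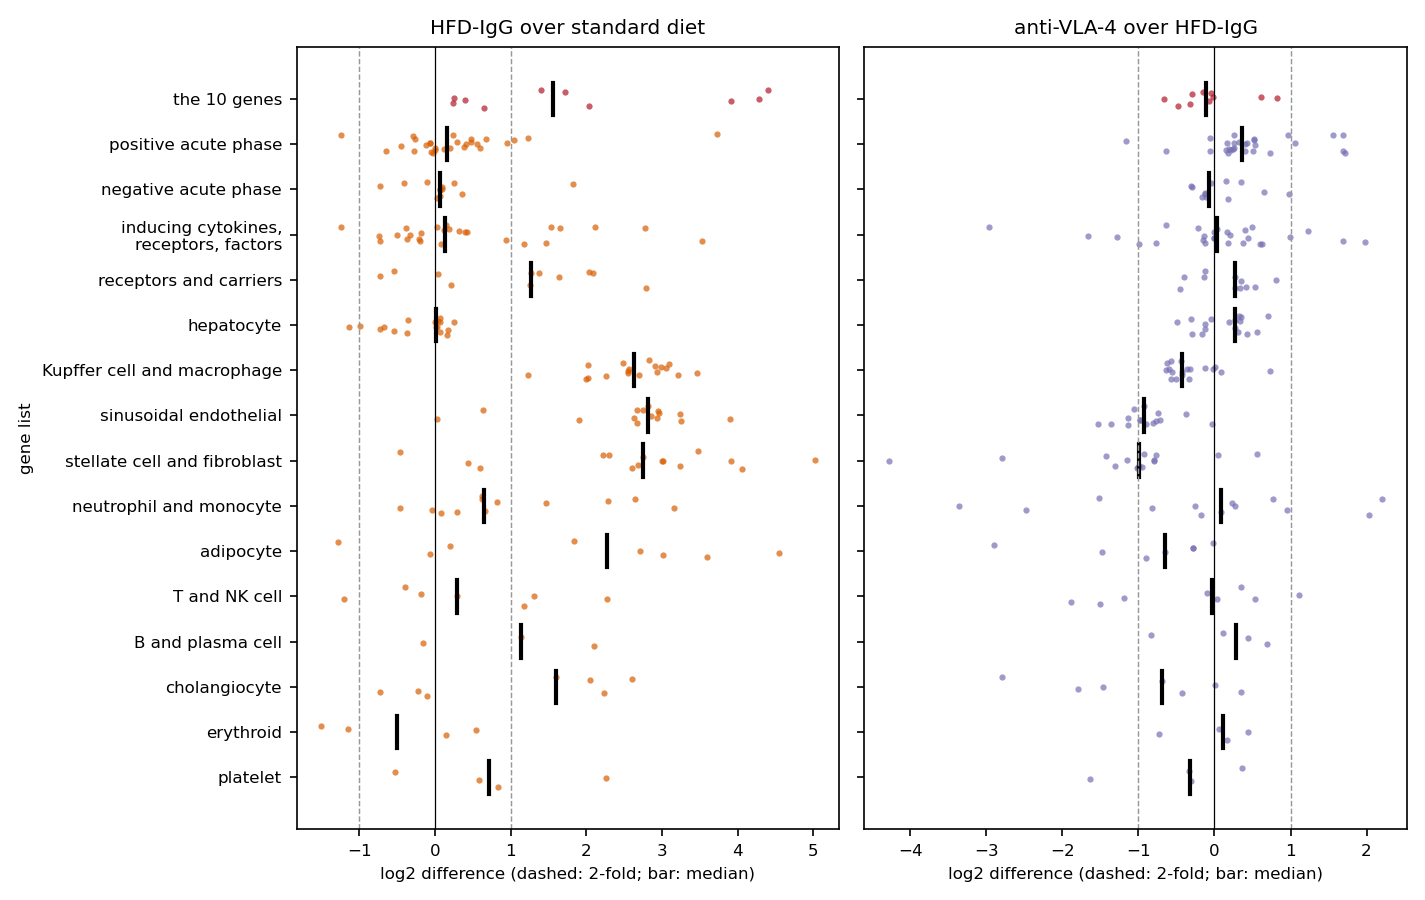
Log2 differences of the 10 genes (top row) and of each list of pathway genes and cell type markers for HFD-IgG over standard diet (left) and anti-VLA-4 over HFD-IgG (right), with 1 point per gene, bars for medians and dashed lines at 2-fold. A gene not well above background on 1 array is drawn at its lower bound. The Kupffer, endothelial and stellate lists lie far right on the left panel, with medians of 2.63, 2.81 and 2.75, and the 10 genes lie at a median of 1.56.

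The genes most like Saa2 and Lcn2 were sought among 12123 genes well above background on all 3 arrays, by the Euclidean distance over the log2 differences of HFD-IgG over standard diet and anti-VLA-4 over HFD-IgG. For Saa2 they were Cfd (distance 0.25), Ly6c1 (0.26), Serpina3g (0.35), Clec7a (0.38) and Colec11 (0.66). For Lcn2 they were Clec7a (0.28), Serpina3g (0.31), Ly6c1 (0.33), H2-DMb1 (0.52) and Cd52 (0.53). Cfd is complement factor D, a protein secreted by fat cells, Ly6c1 is a surface protein of endothelial cells and leukocytes, Clec7a is a fungal receptor of macrophages, and Serpina3g is a protease inhibitor. Cfd had 2.86 in anti-VLA-4, 3.47 in HFD-IgG and 0.148 in standard-diet hepatocytes, and Clec7a had 0.930 in anti-VLA-4, 1.24 in HFD-IgG and 0.0764 in standard-diet hepatocytes. The distance spans 3 arrays only, and a short distance says no more than that 2 genes differed by like amounts on them.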

How the data were processed

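Hepatocyte RNA was measured on 1-colour Agilent arrays (design on build mm9, per the file headers), 1 array per group. The deposited scanner files hold the spot intensity after background subtraction and detrending by the scanner software, and other columns with flags for background, outliers and saturation, per the file headers. The submitters' processing notes name that software as Agilent Feature Extraction, version 11.0.1.1. In the deposited value table, 23206 spots have a ratio equal to the processed signal over the array's 75th percentile within a relative deviation of 2e-08, with medians of 0.810 (anti-VLA-4), 0.796 (HFD-IgG) and 0.787 (standard diet). It was used as an alternative.

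Values here are log2 of processed signal over the 75th percentile of 43020 non-control spots, that is over 514 (anti-VLA-4), 500.3 (HFD-IgG) and 574 (standard diet) intensity units. Well above background were 62.4% of spots with anti-VLA-4, 66.5% with HFD-IgG and 57.3% with standard diet, and the median SD of repeated spots was 0.086 with anti-VLA-4, 0.108 with HFD-IgG and 0.080 with standard diet on the log2 scale, which limits precision together with the number of arrays. Flagged spots were left out, spots of a probe averaged, and a gene took its brightest probe. Symbols were updated through RefSeq for 26055 of 39429 probes. For a probe not well above background on 1 array, the difference is a lower bound against the lowest signal well above it. With 1 array per group no test was run, and genes were counted at 2-fold. Named were the 10 genes, up to 3 genes per list and comparison with the largest difference past 2-fold on arrays that measured them, fixed cytokines and factors, cluster neighbours, and the 5 genes most like Saa2 and Lcn2. The 10 genes, the 15 lists, the motifs and the rules were chosen with earlier results of these data known, and nothing here is independent support for a pattern seen before. Quantile, cyclic loess and normexp (offset 50) alternatives used limma 3.58.1 in R 4.3.3, and the steps were tested on simulated data. Sequence alignments used Biopython 1.88.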

Additional observations from a re-analysis of the deposited data

How the results depend on the processing

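No paired analysis was possible because each group has 1 array, and for the same reason no replicate could be left out. The alternatives tried were quantile scaling, cyclic loess, scaling to the median of bright probes, normexp, the deposited value table, a stricter filter on dim genes and none, the mean over a gene's probes, thresholds of 1.5-fold and 3-fold, and probes of at most 50% purines. Filters, thresholds, the mean over probes, the purine limit and the value table leave the value of a single gene of the 10 as it is, or leave the gene out. Of the other settings, normexp moved 10 of the 10 for HFD-IgG over standard diet by more than the scanner error, 5 for anti-VLA-4 over HFD-IgG and 10 for anti-VLA-4 over standard diet, and the scalings moved 0. None of the 10 that was past 2-fold changed sign, but among other named genes normexp put Whrn at 0.97 in place of -1.84 for HFD-IgG over standard diet, and Gzma at -0.29 in place of 1.11 and Il1b at -0.03 in place of 1.23 for anti-VLA-4 over HFD-IgG. Saa1, Saa2 and Lcn2 kept HFD-IgG over standard diet differences of 3.65 to 4.36, 3.79 to 4.48 and 3.17 to 4.02. Normexp, which moved the median of all genes to 0.48, -0.14 and 0.28 in the 3 comparisons, gave 5 genes at least 2-fold higher for HFD-IgG over standard diet, without Saa4, and 1 for anti-VLA-4 over HFD-IgG, where Saa4 was at 1.03. At 1.5-fold, 2 genes (Saa4 and Orm3) were higher and 1 (Saa1) lower for anti-VLA-4 over HFD-IgG. With probes of at most 50% purines only Saa1, Lcn2 and Hpx were left, of which 2 were higher for HFD-IgG over standard diet and 2 for anti-VLA-4 over standard diet, since fewer genes could be counted. The calls over all genes moved by over 1.5 times. For HFD-IgG over standard diet, 4498 genes higher and 531 lower became 2420 and 2697 with quantile scaling and 8952 and 860 with normexp. For anti-VLA-4 over HFD-IgG, 429 higher and 3721 lower became 2468 and 2056, and 68 and 150. For anti-VLA-4 over standard diet, 1623 higher and 690 lower became 1155 and 865, and 6159 and 421. The cause was not tested. Depth does not limit the 10 genes, which were all well above background, but 1 array per group leaves the spread between mice unknown.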

Other observations

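Red cell genes bear on haptoglobin and hemopexin, which bind haemoglobin and haem. Hba-a1, an alpha globin gene, had levels of 0.526 in anti-VLA-4, 0.388 in HFD-IgG and 1.1 in standard-diet hepatocytes, a 2.83-fold lower value for HFD-IgG than for standard diet that normexp reduced to -0.85 on the log2 scale, under 2-fold. Hbb-bt, a beta globin gene, was 2.23-fold lower in the same comparison, and under 2-fold with normexp. Of 4 erythroid genes measured, 0 were at least 2-fold higher and 2 lower (1 and 0 with normexp). Of all genes well above background on both arrays, 8.87% were higher and 2.12% lower. The summed level of the erythroid list was 15.7 in anti-VLA-4, 14 in HFD-IgG and 10.8 in standard-diet hepatocytes. Hba-a1 and Hbb-bt made up a small part of that sum, and both were highest on the standard-diet array, on which the sum was lowest. Ahsp was not well above background on any array. Hp and Hpx were within 2-fold in these arrays.

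The lists of less abundant cells had few measured genes. Among genes well above background on both arrays of HFD-IgG over standard diet, 0 of 3 T and NK cell genes were at least 2-fold higher and 1 (Cd4) lower, 0 of 1 B and plasma cell genes, 1 of 4 cholangiocyte genes (Spp1) and 1 of 2 platelet genes (Pf4, 4.78-fold) were higher and 0 lower. Over all genes so measured the shares were 8.87% higher and 2.12% lower. Cd4 had levels of 15.6 in anti-VLA-4, 10.8 in HFD-IgG and 24.9 in standard-diet hepatocytes, and which cells gave this signal was not tested. Further genes of these lists were well above background in HFD-IgG alone and entered only through the array on which they were high. Between anti-VLA-4 and HFD-IgG, 1 of 5 T and NK cell genes was higher (Gzma) and 1 lower (Cd3g), and 0 of 3, 0 of 4 and 0 of 2 genes of the B cell, cholangiocyte and platelet lists were past 2-fold. Over all genes well above background on both of those arrays, 1.52% were higher and 6.76% lower. Normexp ended the Gzma and Cd3g calls, at -0.29 and -0.55. Cd3g, a T cell receptor subunit, had 0.0334 in anti-VLA-4 and 0.124 in HFD-IgG hepatocytes and was not well above background in standard-diet hepatocytes.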
